A study of Mus musculus with 90 samples.

Results

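The genes followed here were the NF-kB subunits Nfkb1, Nfkb2, Rela, Relb and Rel and the feedback genes Nfkbia, Nfkbie, Tnfaip3, Birc3 and Bcl3. They were chosen by symbol, and each of the 10 symbols matched exactly 1 of the 53697 rows of the count table. They were measured in YUMM2.1 cells, an established mouse melanoma line, and in CT26 cells, an established line of mouse colon carcinoma. The assay was 3′ digital gene expression, which counts transcripts by sequencing their 3′ ends. Each line was grown in RPMI with serum and sampled in 15 groups of 3 replicates, so there were 45 samples per line and 90 in all. The control groups received BSA in place of IFNγ and were collected at 0, 1, 2 and 3 weeks. Naive cells, with no earlier exposure, received 50 IU/mL IFNγ for 2 h or 24 h at 0 weeks. Chronic cultures grew with IFNγ at 50 IU/mL over 1, 2 or 3 weeks, and their cells were taken either without further treatment (0 h) or 2 h or 24 h after rechallenge with fresh IFNγ. Each tumour model was thus represented by a single line grown without immune or stromal cells, and the labels describe triplicate experiments without saying how far the 3 cultures were separated, so p-values measure only the spread between these samples. The 3-week chronic cells also differed from the naive cells in their time in culture.

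NF-kB transcription factors are dimers of 5 subunits that inhibitor of NF-kB (IkB) proteins hold in the cytoplasm until the IkB kinase complex marks the inhibitor for degradation. Rela, Rel and the p50 product of Nfkb1 carry the canonical arm downstream of cytokine and Toll-like receptors, and Relb with the p52 product of Nfkb2 carries the noncanonical arm downstream of receptors such as the lymphotoxin beta receptor. The genes of IkBα (Nfkbia), IkBε (Nfkbie), the ubiquitin-editing enzyme A20 (Tnfaip3), the ubiquitin ligase cIAP2 (Birc3) and the nuclear IkB-like cofactor Bcl-3 (Bcl3) are textbook NF-kB targets, and several of them shut the pathway off again. In bulk samples such as these, less RNA per cell and fewer cells with the RNA cannot be told apart.

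The libraries were shallow for genes of this abundance. YUMM2.1 samples held between 274719 and 3161276 counts and CT26 samples between 295157 and 2205285, and 3 libraries had less than 25% of the median total of their line (replicate 3 of the YUMM2.1 3-week chronic 0 h group, and in CT26 replicate 3 of the 1-week and of the 3-week chronic 0 h groups). Levels are given as CPM, the count scaled to the sample's total, and log2 fold changes and adjusted p-values come from quasi-likelihood tests in edgeR, adjusted by Benjamini-Hochberg over all tested genes, with a threshold of 0.05. The treatment was visible in the same libraries: after 2 h in naive cells the IFNγ target Irf1, a transcription factor, rose by a log2 fold change of 4.07 (SE 0.25, adjusted p = 2.21e-19) in YUMM2.1 and of 3.46 (SE 0.26, adjusted p = 1.79e-15) in CT26. Melanocyte genes summed to between 15.6 and 69.8 CPM in YUMM2.1 samples and between 0.636 and 16.9 CPM in CT26 samples, so the 2 ranges overlapped slightly. In CT26 the keratin genes Krt8, Krt18 and Krt20 gave all of the 47.4 to 131.0 CPM of the colon epithelial list. Its other markers Epcam, Krt19 and Cdh1 had no count in any CT26 sample. The 6 leukocyte markers (Ptprc, Cd3e, Cd68, Adgre1, Itgam and Cd79a) summed to between 0 and 21.9 CPM in YUMM2.1 and between 1.25 and 16.2 CPM in CT26, with Cd3e and Adgre1 at 0 in every sample of both lines.

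Only 4 of the 10 genes, Nfkb1, Nfkb2, Rela and Nfkbia, had enough counts to be tested in either line. In YUMM2.1 these 4 had 616, 435, 1264 and 1610 counts summed over the 45 samples, and in CT26 they had 542, 409, 445 and 257. The other 6 were counted at most 11 times in any library. Relb summed to 118 counts in YUMM2.1 and 128 in CT26, Rel to 88 and 118, Tnfaip3 to 76 and 98, Nfkbie to 68 and 26, Birc3 to 66 and 30, and Bcl3 to 15 and 3. Bcl3 was at 0 in 35 of the 45 YUMM2.1 samples and in 42 of the 45 CT26 samples. Since 1 count stands for a different CPM value in each library, these 6 genes are described by their counts.

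**Figure D1:**
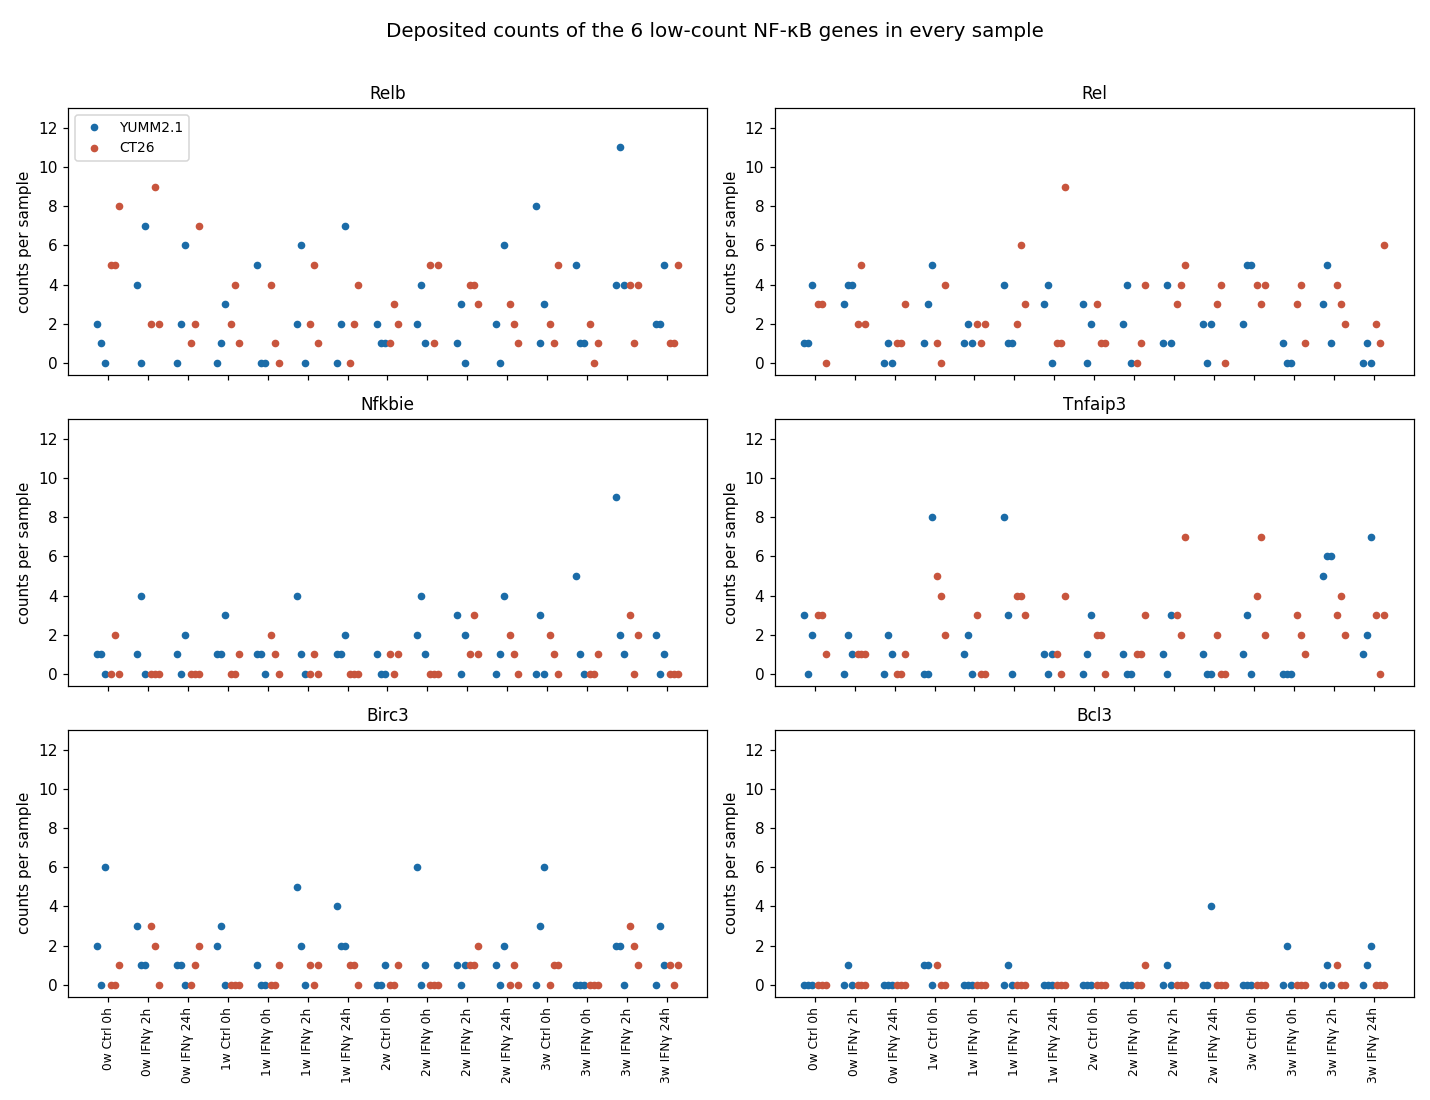
Deposited counts per sample (vertical axis) of Relb, Rel, Nfkbie, Tnfaip3, Birc3 and Bcl3 in the 15 groups of each line (horizontal axis, weeks, treatment and hours of rechallenge), with YUMM2.1 samples in blue and CT26 samples in red and 1 point per sample. No sample exceeded 11 counts, the 3 YUMM2.1 samples at 3 weeks with 2 h of rechallenge had 5, 6 and 6 counts of Tnfaip3, and the 3 samples without rechallenge had 0.

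Over the 16 comparisons within YUMM2.1, 0 of the 64 tests of these genes passed the threshold by edgeR, 8 had an unadjusted p under 0.05, and the smallest adjusted p was 0.0594. DESeq2 gave 0 calls as well, with 8 unadjusted p-values under 0.05 and 12 tests without an adjusted p. In CT26, 0 of 64 tests passed by edgeR, 1 had an unadjusted p under 0.05, and the smallest adjusted p was 0.345, and DESeq2 gave 0 calls, 1 unadjusted p under 0.05 and 26 tests without an adjusted p. Depending on the comparison, between 0% and 8.10% of all 9589 tested genes were called in YUMM2.1, and between 0% and 10.3% of all 8516 in CT26. A p above the threshold does not show that a gene was unchanged, so the intervals are given with each result.

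Among the subunits, Rela, which carries the main transactivation domain of canonical NF-kB, had similar levels in naive YUMM2.1 cells and their controls. Rela lies at chr19:5637483-5648130 on the plus strand (GRCm38). Its 0-week controls had 15, 17.2 and 18.6 CPM, and the naive cells had 14.3, 16.4 and 17.7 CPM after 2 h and 16.3, 19.5 and 15.8 CPM after 24 h of IFNγ. The 3 groups overlapped throughout. By the fold change with its 95% interval, 2 h of IFNγ gave 0.959-fold (0.622 to 1.48) in YUMM2.1 and 0.995-fold (0.526 to 1.88) in CT26, comparisons in which 0.240% and 0.235% of all genes were called and 0 of the 4 tested NF-kB genes. Nfkbia, the IkBα gene that inducers of NF-kB usually raise within an hour or so, likewise gave 1.03-fold (0.680 to 1.55) in YUMM2.1 and 1.14-fold (0.469 to 2.75) in CT26 at 2 h. At this depth the interval for Nfkbia reached up to a 1.55-fold rise in YUMM2.1, and in CT26, where the gene had few counts, the interval reached up to a 2.75-fold rise. After 24 h in naive cells, 0 of 4 were called in either line (background 0.886% and 2.04%), and Nfkbia stood at 0.951-fold (0.619 to 1.46) in YUMM2.1. In CT26 Rela stood at 0.537-fold (0.235 to 1.23) after 24 h. All CT26 samples of Nfkb2 lay below all their controls at 24 h, without a call. The share of all genes with such a separation is not given here.

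**Figure D2:**
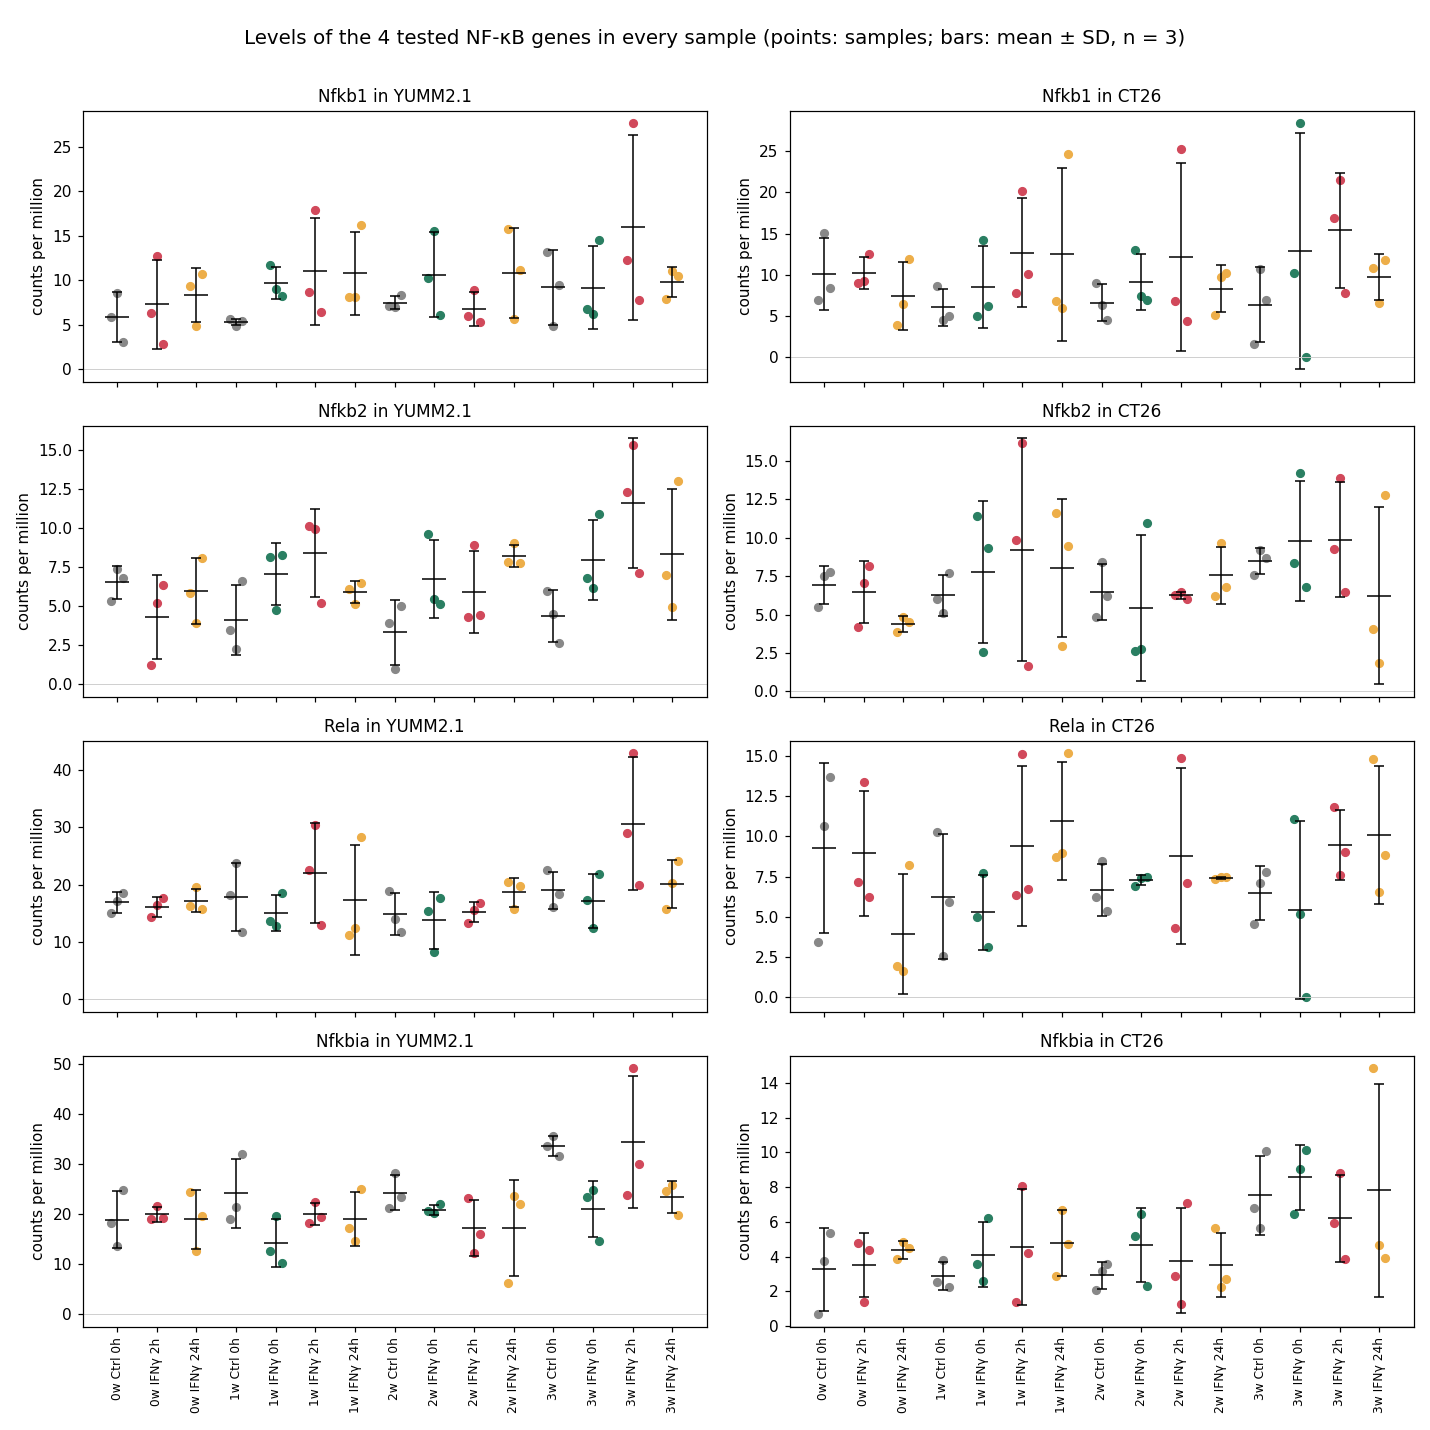
Levels in CPM (vertical axes) of Nfkb1, Nfkb2, Rela and Nfkbia in the 15 groups of YUMM2.1 (left) and CT26 (right), with points for samples (grey controls, green IFNγ without rechallenge, red 2 h and yellow 24 h of fresh IFNγ) and bars for the mean ± SD (n = 3). In YUMM2.1 the 3-week group with 2 h of rechallenge had the highest mean for all 4 genes (15.9, 11.6, 30.6 and 34.3 CPM), and replicate 2 was the highest of its 3 points each time.

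Nfkbia was higher at 3 weeks than at 0 weeks in the YUMM2.1 cultures kept without IFNγ, without a call. The gene lies at chr12:55489410-55492647 on the minus strand. Control cells had 18.2, 13.5 and 24.8 CPM at 0 weeks, 19.0, 21.5 and 31.9 CPM at 1 week, 21.2, 28.1 and 23.4 CPM at 2 weeks, and 33.6, 35.7 and 31.5 CPM at 3 weeks. All 3 controls of 3 weeks lay above all 9 earlier controls except that the highest 1-week control, at 31.9 CPM, fell inside their range. From 0 to 3 weeks the control level was 1.76-fold higher (95% interval 1.20 to 2.59, log2 fold change 0.82, SE 0.28), with an adjusted p of 0.239 and an unadjusted p of 0.00433, in a comparison in which 0.521% of all genes were called. CT26 controls had 0.686, 3.76 and 5.37 CPM at 0 weeks and 6.83, 5.68 and 10.1 CPM at 3 weeks. All 3 later samples were above all 3 earlier ones, and the fold was 2.40 (1.07 to 5.37, adjusted p = 0.361, background 0.916%). In both lines the 3-week controls of Nfkbia were thus completely above the 0-week controls, as were 8.74% of tested genes in YUMM2.1 and 7.05% in CT26, and neither difference passed the test (0 of 4 genes called in each line). Nfkb1, Nfkb2 and Rela overlapped between these control groups in both lines. The summed leukocyte markers of YUMM2.1 controls also did not overlap, at 3.75, 7.39 and 4.34 CPM at 0 weeks and 17.8, 8.64 and 11.2 CPM at 3 weeks. Most of their counts were of Cd68, a lysosomal glycoprotein gene, with 7, 6 and 5 counts at 0 weeks and 42, 22 and 34 at 3 weeks, while Cd3e, Adgre1 and Itgam were at 0 in these 6 samples. In CT26 controls the list had 2.06, 1.25 and 2.98 CPM at 0 weeks and 4.55, 2.84 and 3.66 CPM at 3 weeks, which overlapped. The part of these markers in the Nfkbia values was not tested.

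Chronic IFNγ went with lower Nfkbia than in the time-matched controls in YUMM2.1, without a call in any single week. The IFNγ cultures had 12.7, 19.7 and 10.3 CPM at 1 week, 20.5, 20.1 and 22.0 CPM at 2 weeks, and 23.5, 24.8 and 14.6 CPM at 3 weeks. At 3 weeks all 3 IFNγ samples lay below all 3 controls, as did 7.20% of tested genes, and at 1 and 2 weeks the groups overlapped. The folds were 0.600 (0.397 to 0.904, adjusted p = 0.599) at 1 week, 0.862 (0.572 to 1.30, adjusted p = 0.976) at 2 weeks and 0.630 (0.418 to 0.949, adjusted p = 0.379) at 3 weeks, with 0 of 4 genes called each time against 0.730%, 1.12% and 0.970% of all genes. Averaged over the 3 durations, a contrast added after these low counts were seen, Nfkbia was 0.688-fold (0.543 to 0.872, log2 fold change -0.54, SE 0.17, adjusted p = 0.0718, background 2.95%). This was not a call, and 2 of 24 alternatives gave one. The adjusted p was 0.0423 when only the 6 compared groups were fitted and 0.0329 without replicate 2 of the 1-week IFNγ group. Over the 24 alternatives it ran from 0.0329 to 0.221, with the log2 fold change always between -0.66 and -0.45. The 3-week controls were themselves the highest controls. The 3-week difference thus combines a control level of 33.6 ± 2.08 CPM with an IFNγ level of 20.9 ± 5.56 CPM (SD, n = 3). CT26 did not share this direction. There the averaged contrast was positive for 3 of the 4 tested genes, all but Rela, with 0 called. The CT26 3-week IFNγ group, which includes a shallow library, had the highest of the 15 Nfkbia means (8.56 CPM). The 1-week CT26 controls had the lowest (2.89 CPM), and IFNγ groups and controls of the same week overlapped.

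Nfkb2, the precursor of p52, leaned the other way in the same averaged contrast. It lies at chr19:46304320-46312385 on the plus strand, and its 3′ end overlaps the antisense gene Psd by 299 exonic bases, so that reads of the 2 genes cannot be separated if strand was not used in counting, which the sources do not say. YUMM2.1 controls had 3.46, 2.26 and 6.64 CPM at 1 week, 3.93, 1.01 and 5.02 CPM at 2 weeks and 5.95, 4.51 and 2.62 CPM at 3 weeks. The IFNγ cultures had 8.14, 4.78 and 8.26 CPM, 9.62, 5.49 and 5.14 CPM, and 6.80, 6.19 and 10.9 CPM at the same times. The 2 groups did not overlap at 2 and 3 weeks (all IFNγ samples higher, as for 8.25% and 12.0% of tested genes) and did at 1 week. The gaps, 5.14 against 5.02 CPM at 2 weeks and 6.19 against 5.95 CPM at 3 weeks, were each smaller than 1 count. A single count stood for 0.836 CPM in the highest 2-week control and for 1.03 CPM in the lowest 3-week IFNγ sample. The 10.9 CPM at 3 weeks was 3 counts in the shallowest YUMM2.1 library. The averaged fold was 1.66 (1.10 to 2.52, adjusted p = 0.219), and in CT26 it was 1.03 (0.663 to 1.61, adjusted p = 0.962, 0 of 4 called, background 8.14%). Nfkb1, the precursor of p50, at chr3:135584655-135691547 on the minus strand, had 11.7, 9.03 and 8.26 CPM in 1-week IFNγ cultures of YUMM2.1 and 5.63, 4.89 and 5.38 CPM in their controls, without overlap, as for 8.18% of tested genes. Its averaged fold was 1.23 (0.846 to 1.80) in YUMM2.1 and 1.50 (0.891 to 2.53) in CT26, and Rela had 0.837 (0.647 to 1.08) and 0.955 (0.603 to 1.51). CT26 had 0 of 4 genes called at 1, 2 and 3 weeks against backgrounds of 0.728%, 1.67% and 7.23%. The smallest adjusted p there was that of Nfkb1 at 3 weeks, whose IFNγ samples had 10.2, 28.4 and 0 CPM, the last from the shallow library, and whose controls had 1.52, 10.6 and 6.87 CPM.

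Cells rechallenged for 2 h after 3 weeks of IFNγ had the highest mean levels of several of these genes. In YUMM2.1 this group had the highest of the 15 group means for 7 of the 10 genes (Nfkb1, Nfkb2, Rela, Relb, Nfkbia, Nfkbie and Tnfaip3), and in CT26 for 5 of the 10 (Nfkb1, Nfkb2, Nfkbie, Tnfaip3 and Birc3). Of the 4 tested genes in each line, the rechallenged 3-week group had the highest mean for 4 in YUMM2.1 and for 2 in CT26. This group also gave the highest mean of 20.9% of all genes tested in YUMM2.1 and of 15.7% in CT26, so these orderings are descriptions. When the 15 group means of a gene were ranked, the ranges of neighbouring groups overlapped in 14 of 14 pairs for every gene in both lines except Nfkbia in YUMM2.1, where they overlapped in 13 of 14 and the exception was the 3-week control above the 2-week control. In YUMM2.1, replicate 2 of the rechallenged 3-week group was the highest of the 3 replicates for 9 of the 10 genes, and its 155.7 CPM summed over the 10 was the highest of the 45 samples, whose median was 58.1 CPM. The same replicate had the highest sums of its group for the melanocyte genes (69.8 CPM against 39.8 and 32.1) and for the NF-kB upstream genes (397.4 CPM against 243.2 and 232.3). Without it the group had the highest mean for 5 of the 10 genes (Nfkb2, Rela, Relb, Nfkbie and Tnfaip3) and for 2 of the 4 tested ones, beside 8.82% of all tested genes.

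Compared with naive YUMM2.1 cells given the same 2 h of IFNγ, the rechallenged 3-week cells were higher in all 4 tested genes, though none passed the threshold. Nfkb2 had 12.3, 15.3 and 7.13 CPM in the 3-week cells and 1.27, 5.23 and 6.38 CPM in the naive cells. Rela had 29.0, 43.0 and 20.0 CPM against 14.3, 16.4 and 17.7 CPM. Nfkbia had 23.9, 49.1 and 29.9 CPM against 19.0, 21.7 and 19.1 CPM. For these 3 genes every 3-week sample lay above every naive sample, which also held for 15.1% of all tested genes. Nfkb1 overlapped, with 12.3, 27.6 and 7.84 CPM against 6.33, 12.7 and 2.84 CPM.

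The folds were 2.62 for Nfkb2 (1.33 to 5.16, log2 fold change 1.39, SE 0.48, adjusted p = 0.0594), 1.72 for Rela (1.14 to 2.58, log2 fold change 0.78, SE 0.29, adjusted p = 0.0868), 1.98 for Nfkb1 (1.08 to 3.62, adjusted p = 0.144) and 1.56 for Nfkbia (1.05 to 2.30, adjusted p = 0.144). Each had an unadjusted p under 0.05 by edgeR, as did 2344 of all 9589 tested genes. After adjustment 0 of 4 were called, and 8.10% of all genes were called in this comparison. The median log2 fold change of the 4 was 0.88, beside 0.04 over all tested genes. Without replicate 2 of the 3-week group the log2 fold changes fell to 1.21 for Nfkb2 (adjusted p = 0.291), 0.53 for Rela (0.513), 0.42 for Nfkb1 (0.778) and 0.37 for Nfkbia (0.668). Without replicate 3 of that group Nfkb2 (adjusted p = 0.0328) and Rela (0.0377) were called, and without replicate 2 of the naive group Nfkb1 was (0.0447). Nfkb2 was also called when library totals were the only scaling (adjusted p = 0.0431). Leaving out 1 library in turn therefore moved the number of called genes between 0 and 2. The difference between the lines in this comparison was not called for any of the 4 (background 0.474%), and for Nfkb2 its 95% interval ran from 0.718-fold to 5.01-fold.

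**Figure D3:**
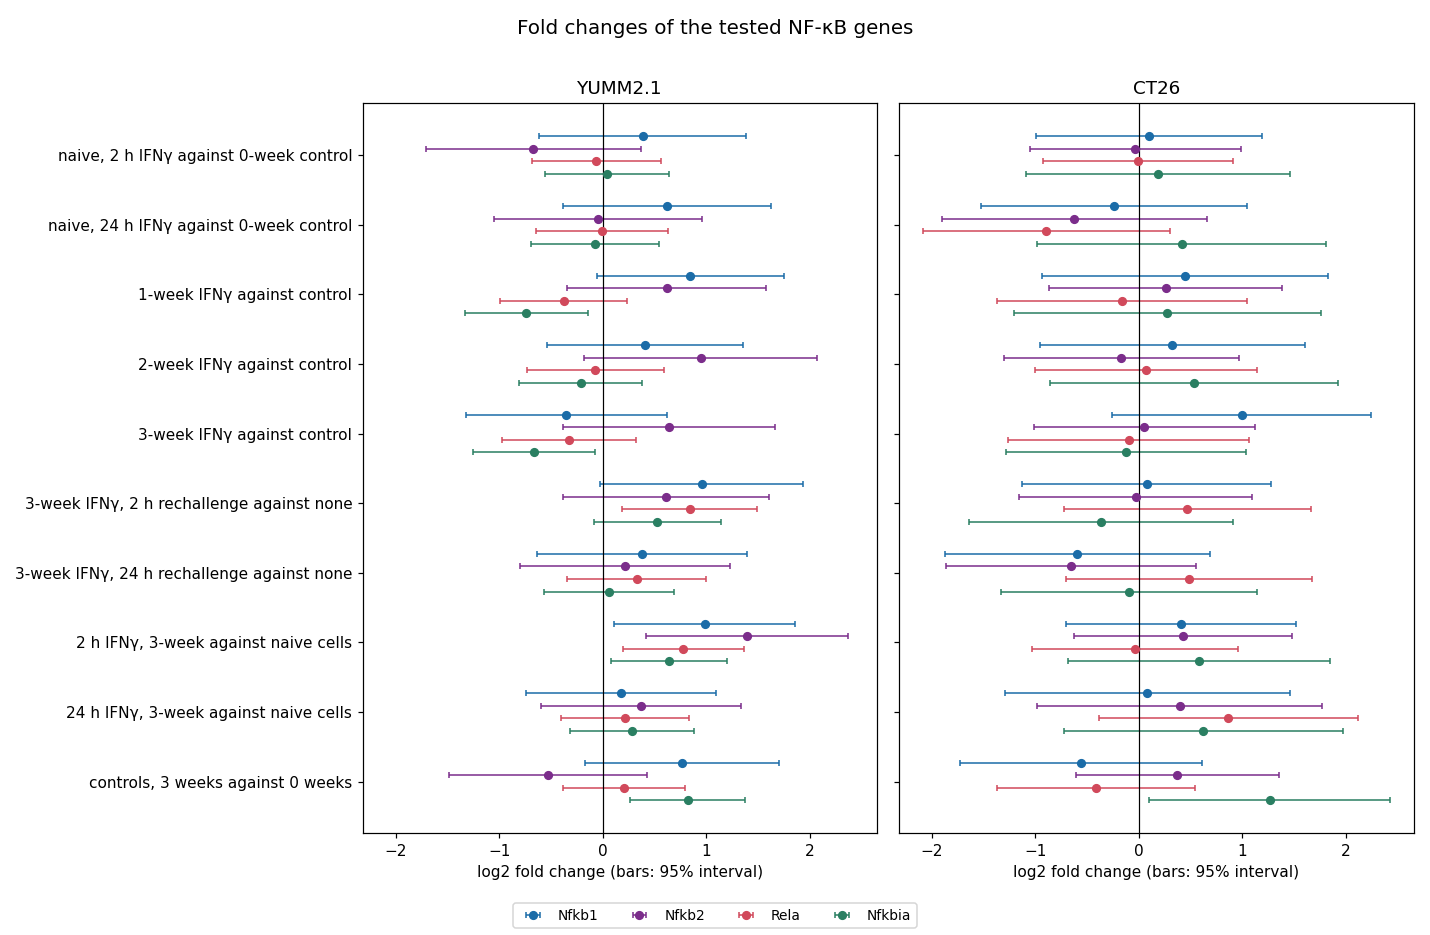
Log2 fold changes of Nfkb1, Nfkb2, Rela and Nfkbia (points, horizontal axes) with 95% intervals (bars) in 10 comparisons in YUMM2.1 (left) and CT26 (right), from edgeR's fit of the 45 samples of each line. The intervals of all 4 genes lie above 0 only for 3-week against naive YUMM2.1 cells after 2 h of IFNγ, where adjusted p-values were 0.0594 to 0.144, and the CT26 intervals of Rela and Nfkbia are wider than those of YUMM2.1.

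The groups at 2 h differed in their starting level as well, so the change from the unchallenged state was followed separately. Rela had 17.3, 12.4 and 21.8 CPM in 3-week YUMM2.1 cells without rechallenge and the 29.0, 43.0 and 20.0 CPM above after 2 h. The groups overlapped, and the fold was 1.79 (1.13 to 2.81, adjusted p = 0.267), or a log2 fold change of 0.61 (adjusted p = 0.737) without replicate 2 of the 2 h group. Nfkb1 was at 1.94-fold (0.982 to 3.82), Nfkb2 at 1.53-fold (0.767 to 3.04) and Nfkbia at 1.44-fold (0.941 to 2.20), so 0 of 4 were called against 1.08% of all genes. Without that replicate their log2 fold changes were 0.41 for Nfkb1 (adjusted p = 0.941), 0.45 for Nfkb2 (0.938) and 0.27 for Nfkbia (0.938). After 1 and 2 weeks of IFNγ, 2 h of rechallenge gave 0 of 4 calls each (background 0.615% and 0.428%), with Rela at 1.50-fold (0.964 to 2.33) and 1.08-fold (0.691 to 1.69). At 24 h after rechallenge 0 of 4 were called at 1, 2 and 3 weeks (background 1.42%, 0.615% and 0), and at 3 weeks Rela was at 1.25-fold (0.787 to 2.00). Averaged over naive cells and the 3 durations, in a contrast added after the counts were seen, 2 h of fresh IFNγ gave Rela a fold of 1.29 (1.03 to 1.61, adjusted p = 0.284, background 2.19%) and Nfkb2 one of 0.998 (0.707 to 1.41). In CT26, 0 of 4 genes were called 2 h after rechallenge at 1, 2 and 3 weeks (background 0.376%, 0.305% and 0.0117%) or 24 h after it (1.32%, 0.658% and 0), and the averaged 2 h fold of Rela was 1.25 (0.860 to 1.81, background 0.928%).

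Whether the 2 h response itself differed between 3-week and naive YUMM2.1 cells was tested as a difference of differences. The estimate was a 1.86-fold larger response for Rela (0.996 to 3.49, adjusted p = 0.740) and a 2.43-fold larger one for Nfkb2 (0.899 to 6.58, adjusted p = 0.776), and 0 of 4 genes were called against 0.115% of all genes. For Nfkbia it was 1.40-fold (0.774 to 2.53). Without replicate 2 of the rechallenged 3-week group the log2 differences were 0.67 for Rela (adjusted p = 0.930), 1.12 for Nfkb2 (0.920), 0.23 for Nfkbia (0.991) and 0.03 for Nfkb1 (1.00). In CT26 the same estimates were 1.39-fold for Rela (0.490 to 3.94), 1.00-fold for Nfkb2 (0.349 to 2.87) and 0.683-fold for Nfkbia (0.195 to 2.39), with 0 of 4 called against 0.211%. For the 24 h response 0 of 4 were called in YUMM2.1 (0.615%) and in CT26 (1.20%). The levels at 24 h themselves also gave 0 of 4 calls between 3-week and naive cells in YUMM2.1 (0.813%) and in CT26 (2.48%), with Rela at 1.16-fold (0.754 to 1.78) and 1.82-fold (0.766 to 4.33).

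CT26 cells at 2 h after rechallenge were not distinguishable from naive CT26 cells at 2 h in the tested genes. Nfkb1 had 16.9, 21.5 and 7.75 CPM in 3-week cells and 8.98, 9.17 and 12.5 CPM in naive cells, and Nfkbia had 5.92, 8.84 and 3.87 CPM against 4.79, 1.41 and 4.38 CPM. Both overlapped. The folds were 1.33 for Nfkb1 (0.614 to 2.87), 1.34 for Nfkb2 (0.645 to 2.79), 0.971 for Rela (0.487 to 1.94) and 1.50 for Nfkbia (0.624 to 3.60), so 0 of 4 were called, beside 10.3% of all genes. The median log2 fold change of the 4 was 0.42, beside 0.04 over all tested genes. By CPM on library totals the 3-week mean was the higher one for 10 of the 10 genes in CT26, Rela included although its fitted fold was 0.971, and for 9 of 10 in YUMM2.1. In each line this held for 4 of the 4 tested genes, while 68.1% of all tested genes in CT26 and 63.4% in YUMM2.1 had the higher mean there. Of the 10 only Tnfaip3 had CT26 groups that did not overlap.

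Tnfaip3, which encodes the deubiquitinase A20, went from no count to several in every YUMM2.1 library of 1 comparison, the 2 h rechallenge at 3 weeks. It lies at chr10:19000910-19015657 on the minus strand. The 3 YUMM2.1 samples of 3 weeks without rechallenge had 0, 0 and 0 counts, which allows up to 1.05 CPM over the group by a floor of 3 counts. After 2 h of rechallenge there were 5, 6 and 6 counts (3.62, 4.60 and 4.28 CPM, mean 4.17 ± 0.501, SD, n = 3), and after 24 h there were 1, 2 and 7. The 2 h samples thus lay above all 3 unchallenged samples, and pooled over the group the level was 3.97 times the floor of the unchallenged samples. With the lower 95% Poisson limit of the 17 counts in its place the ratio was 2.31, and both cover counting error only. The 3 samples of 3 weeks without rechallenge include the shallowest YUMM2.1 library.

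Naive YUMM2.1 cells had 0, 2 and 1 counts of Tnfaip3 after 2 h of IFNγ, and their controls had 3, 0 and 2. Pooled over the group, the level was 4.16 CPM (exact 95% Poisson interval 2.42 to 6.66) in 3-week cells and 0.586 CPM (0.121 to 1.71) in naive cells at 2 h. When edgeR was run without its filter on low counts, the 2 h rechallenge at 3 weeks had an unadjusted p of 0.00183 and an adjusted p of 0.180. In CT26 the 3-week cells had 3, 4 and 2 counts (2.54, 5.05 and 2.58 CPM) after 2 h of rechallenge and the naive cells 1, 1 and 1 (0.599, 0.705 and 0.625 CPM), with no overlap, but the 3-week cells without rechallenge already had 3, 2 and 1 (2.78, 2.58 and 3.39 CPM). Groups in which all samples were higher than all samples of the other made up 20.8% of tested genes in that CT26 comparison and 8.89% for the YUMM2.1 rechallenge.

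The promoters of 4 genes are printed because these were the genes whose 3 rechallenged 3-week YUMM2.1 samples all lay above the 3 naive ones. Each window runs from 250 bases before to 50 bases after an annotated start in RefSeq (GRCm38.p6), 5′ to 3′ on the gene's strand, and capitals mark matches to the NF-kB consensus, searched on both strands. The windows are chr12:55492598-55492897 for Nfkbia, chr10:19015361-19015660 for Tnfaip3 (the first of 2 annotated starts), chr19:46304487-46304786 for Nfkb2 (the first of 3) and chr19:5637291-5637590 for Rela.
Nfkbia: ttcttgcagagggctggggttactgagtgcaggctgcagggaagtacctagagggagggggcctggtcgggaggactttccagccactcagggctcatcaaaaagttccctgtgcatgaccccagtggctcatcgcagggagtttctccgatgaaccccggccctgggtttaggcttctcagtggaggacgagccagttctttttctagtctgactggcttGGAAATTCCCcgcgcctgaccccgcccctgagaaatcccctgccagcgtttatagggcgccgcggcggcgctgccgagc
Tnfaip3: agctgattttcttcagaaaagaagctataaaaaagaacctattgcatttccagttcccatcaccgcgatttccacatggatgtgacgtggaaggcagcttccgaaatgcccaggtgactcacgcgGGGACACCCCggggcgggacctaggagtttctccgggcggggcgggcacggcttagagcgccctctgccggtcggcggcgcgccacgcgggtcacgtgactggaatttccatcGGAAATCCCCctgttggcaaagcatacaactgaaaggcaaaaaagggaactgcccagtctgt
Nfkb2: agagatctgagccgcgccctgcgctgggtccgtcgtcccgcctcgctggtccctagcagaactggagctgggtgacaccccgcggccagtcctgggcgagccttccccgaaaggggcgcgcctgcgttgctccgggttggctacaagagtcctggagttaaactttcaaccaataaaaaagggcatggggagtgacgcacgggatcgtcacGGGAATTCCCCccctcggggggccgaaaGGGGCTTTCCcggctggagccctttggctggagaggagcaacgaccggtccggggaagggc
Rela: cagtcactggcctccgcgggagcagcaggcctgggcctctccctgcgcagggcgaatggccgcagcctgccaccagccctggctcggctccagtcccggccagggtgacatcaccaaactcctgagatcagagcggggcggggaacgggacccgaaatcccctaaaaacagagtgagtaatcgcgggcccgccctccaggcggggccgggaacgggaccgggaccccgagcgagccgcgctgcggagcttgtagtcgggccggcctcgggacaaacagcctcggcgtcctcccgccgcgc

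Nfkbia holds 1 match, which begins at position -29 from the annotated start, and Tnfaip3 holds 2, at positions -125 and -12. In this Nfkb2 window the matches begin at -39, -38 and -11, the first 2 being 1 overlapping site read on both strands, and Rela holds none. Of the 10 genes 8 had a window in the reference, and 6 of these 8 (Bcl3, Tnfaip3, Rel, Nfkbia, Nfkbie and Nfkb2) held at least 1 match, compared with 4.51% of all 32851 windows. The core of the interferon-stimulated response element was found in none of the 8 and in 3.44% of all windows. The first share counts genes and the second counts windows, and genes with more than 1 annotated start had more than 1 window in which to hold a match. Since the feedback genes are textbook NF-kB targets, the matches in their windows say nothing about the response to IFNγ. Matches are runs of letters, not evidence of binding, and a window without one does not speak to sites elsewhere.

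The remaining low-count genes gave scattered values. Relb, the transactivating subunit of the noncanonical arm, had 4, 11 and 4 counts in rechallenged 3-week YUMM2.1 cells and 4, 0 and 7 in naive cells at 2 h. Nfkbie had 9, 2 and 1 counts in that 3-week group and 5, 1 and 0 without rechallenge, so a single library gave most of its counts. Both genes overlapped between groups. Rel, the lymphoid subunit c-Rel, had 3, 5 and 1 counts there after 2 h and 1, 0 and 0 before, and the lowest 2 h sample and the highest sample before it each had a single count (0.713 and 0.618 CPM). Birc3 was at 0 in all 3 unchallenged 3-week samples in both lines and had 2, 2 and 0 counts after 2 h in YUMM2.1 and 3, 2 and 1 in CT26. Without the filter on low counts, 0 of 96 edgeR tests of these 6 genes were called in either line, with 8 unadjusted p-values under 0.05 in YUMM2.1 (smallest adjusted p 0.180) and 3 in CT26 (0.253).

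Nfkbia was called between the lines, while no comparison within a line called it when all samples were fitted by edgeR with the settings described. The sizes of the line and treatment differences were not tested against each other. In the 0-week controls it had 18.2, 13.5 and 24.8 CPM in YUMM2.1 and 0.686, 3.76 and 5.37 CPM in CT26, with all YUMM2.1 samples higher, as for 35.3% of tested genes. The fold was 5.07 (2.65 to 9.73, log2 fold change 2.34, SE 0.47, adjusted p = 4.03e-06), and Nfkbia was the 1 of 4 tested genes called, in a comparison in which 46.0% of all 10339 genes were called. Over all 15 matched groups every YUMM2.1 sample lay above every CT26 sample in 15 of 15, and the ratio of means ran from 2.45 to 8.37 with a median of 4.48. Such complete separation in 15 of 15 groups held for 12.2% of all tested genes.

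Rela had a higher mean in YUMM2.1 in 15 of 15 groups and no overlap in 12 of them, which 23.4% of tested genes reached or exceeded, with ratios from 1.58 to 4.39 (median 2.34). At 0 weeks alone its fold was 1.60 (0.951 to 2.69, adjusted p = 0.131). Nfkb1 and Nfkb2 showed no such order. Nfkb1 had a higher YUMM2.1 mean in 8 of 15 groups and a 0-week fold of 0.487 (0.225 to 1.05, adjusted p = 0.115), which was called when only the 2 compared groups were fitted (adjusted p = 0.0338), and Nfkb2 had a higher mean in 5 of 15 and a fold of 0.821 (0.417 to 1.62). Relb leaned to CT26 at 0 weeks, with 5, 5 and 8 counts there and 2, 1 and 0 in YUMM2.1 (all lower, as for 20.3% of tested genes), and was called only when the filter on low counts was dropped (log2 fold change -2.51, SE 1.09, adjusted p = 0.0455). Responses to IFNγ were not shown to differ between the lines for any tested gene, since 0 of 4 were called for the 2 h response of naive cells (background 0), the 24 h response (0.0870%) and the 3-week response (0.106%).

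**Figure D4:**
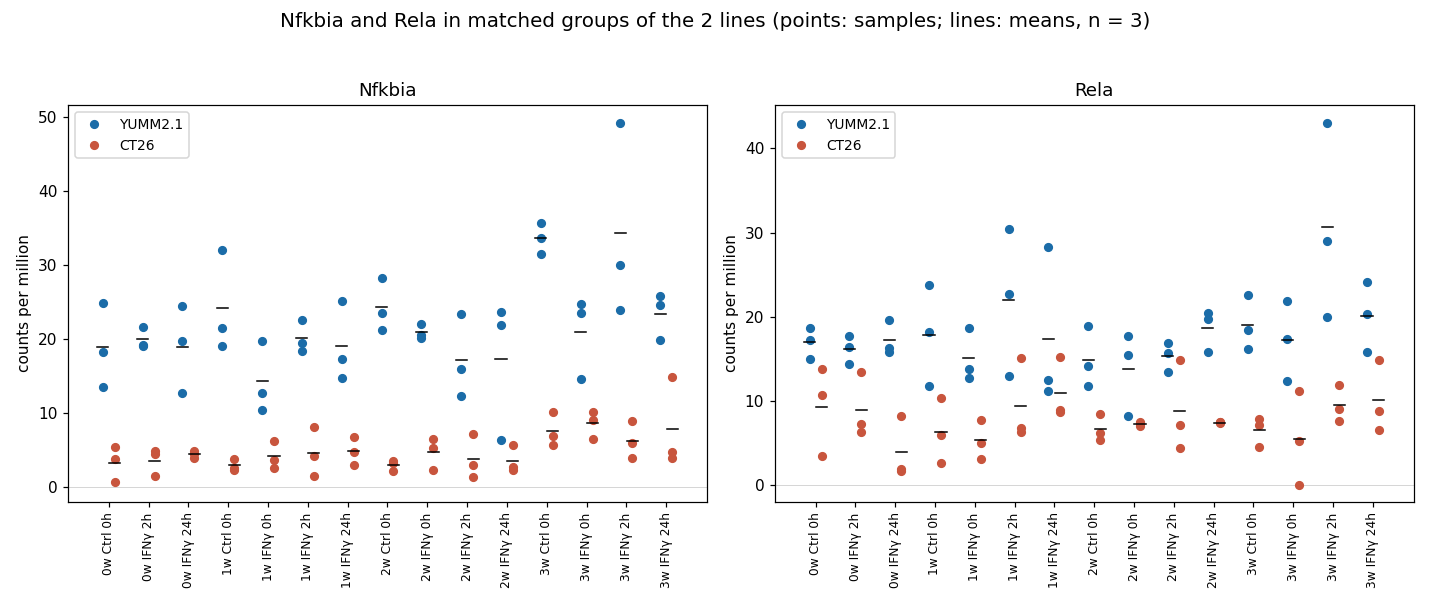
Levels in CPM (vertical axes) of Nfkbia (left) and Rela (right) in the 15 matched groups of YUMM2.1 (blue) and CT26 (red), with points for samples and short lines for means (n = 3). All YUMM2.1 points of Nfkbia lie above all CT26 points of the same group, and those of Rela do so in 12 of 15 groups.

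Other genes of the pathway were taken from lists written for this work, with earlier results known. In the comparison of 3-week with naive YUMM2.1 cells at 2 h, 0 of 18 tested upstream genes (receptors, adaptors and kinases) and 0 of 5 regulators of the pathway were called, whereas 2 of 11 output genes rose, beside 8.10% of all genes called: the cytokine genes Lif (log2 fold change 2.38, SE 0.45, adjusted p = 0.000305) and Csf1 (1.13, SE 0.31, adjusted p = 0.0173). Lif had 36.2, 85.2 and 24.9 CPM in 3-week cells and 5.91, 14.9 and 4.96 CPM in naive cells, with no overlap, and replicate 2 was the highest of each group. Without replicate 2 of the 3-week group Lif was still called (1.81, SE 0.47, adjusted p = 0.0206) and Csf1 was not (0.63, SE 0.33, adjusted p = 0.400), with 1.84% of all genes called. The median log2 fold changes of the upstream, regulator and output lists were 0.61, -0.09 and 0.40, beside 0.04 over all genes. In CT26, 1 of 16 upstream genes rose, Ikbkg (NEMO, the scaffold of the IkB kinase complex, log2 fold change 0.93, SE 0.26, adjusted p = 0.0159), with 3 of 8 outputs, beside 10.3% of all genes called. The outputs were Lif (2.60, SE 0.68, adjusted p = 0.00395), the stress-response gene Ier3 (1.01, SE 0.34, adjusted p = 0.0432) and Csf1 (1.07, SE 0.36, adjusted p = 0.0491), the last named after its values were seen. Tnf had no count in any of the 90 samples, and Cxcl2 had none in CT26.

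Immediate-early genes, which many growth and stress signals raise within minutes, were higher in the rechallenged 3-week cells than in naive cells at 2 h. This comparison does not separate the starting level of the 3-week cells from their response to fresh IFNγ. The study's own signature of chronic IFNγ, drawn from this time course, holds Egr1, Junb and Lif, so these genes are not independent of it. Summed over their list they reached 285.2, 356.0 and 280.1 CPM in the rechallenged 3-week YUMM2.1 samples and 130, 128 and 92.9 CPM in naive samples at 2 h, and in CT26 191.9, 238.6 and 197.6 CPM against 115, 133 and 98.2 CPM. The groups did not overlap in either line. In YUMM2.1, 6 of the 8 tested members rose, led by the transcription factor genes Egr1 (log2 fold change 2.41, SE 0.44, adjusted p = 0.000145) and Junb (1.92, SE 0.34, adjusted p = 0.000106), and in CT26, 2 of 6 rose (Junb and Egr1), beside 8.10% and 10.3% of all genes called. Without replicate 2 of the 3-week YUMM2.1 group 5 of 8 were called, with 1.84% of all genes. Their part in the NF-kB results was not tested.

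Beyond the 2 h comparison the lists gave few calls. At 3 weeks without rechallenge, 0 of 18 upstream, 0 of 5 regulator and 0 of 11 output genes were called in YUMM2.1, and in CT26 the output Csf1 rose (1.76, SE 0.43, adjusted p = 0.00494) and the ribonuclease gene Zc3h12a fell (log2 fold change -0.76, SE 0.23, adjusted p = 0.0336). The tested IFNγ targets rose in 4 of 6 cases in YUMM2.1 and in 5 of 6 in CT26 at 3 weeks. In this comparison 0.970% of all genes were called in YUMM2.1 and 7.23% in CT26.

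Across the 15 group means, the 4 tested genes did not share a single pattern. In YUMM2.1 Pearson's r was 0.64 for Nfkb1 with Nfkb2, 0.50 for Rela with Nfkbia and -0.25 for Nfkb2 with Nfkbia. In CT26 it was 0.67 for Nfkb1 with Rela and between -0.28 and 0.23 for the other pairs. The genes whose group means were most like Nfkbia in YUMM2.1 were Prelid1 (r = 0.84), Cpe, Sec24c, Tmem176a and Lgals3 (r = 0.80), and those most like Rela were Tcf25 (r = 0.89), Lmnb2, Me1, Emc10 and Ppp2r5d (r = 0.85). In CT26 Nfkb1 was most like Klf5 (r = 0.88), Ints1, Lmtk2, Usp7 and Btbd1, and Rela most like Ndc1 (r = 0.87), Gabpb1, Enpp4, Vhl and Nemp1. These values describe 15 points that share libraries and depth, and the named genes were the 5 highest among all tested genes.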

How the data were processed

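RNA of 90 samples was sequenced by 3′ digital gene expression. The deposited table holds counts per gene that the authors made from their reads. The submitters' processing notes name Salmon 0.13.1 and the mm10 genome, and the study's methods name tximport. The study left out some outlier samples without naming them, and all 90 were kept here. Samples were grouped by the labels.

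Identifiers were matched to symbols through the reference annotation (53668 of 53697 matched). Counts were tested with edgeR 4.0.16 in R 4.3.3 (filterByExpr, TMM scaling, quasi-likelihood fit over the 45 samples of a line, or over all 90 between lines), with Benjamini-Hochberg adjustment over the 9589, 8516 or 10339 genes tested and a threshold of 0.05. Intervals are 95% intervals from Wald standard errors, and printed CPM use library totals alone. Poisson intervals and the floor of 3 counts cover counting error only. Alternatives were DESeq2 1.42.0, no filter on low counts, library totals as scaling, only the compared groups, a replicate block and leaving out each replicate. The script was tested on simulated data.

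The genes, gene lists and comparisons were chosen with earlier results of these data known. The 10 genes were all named, other genes were named where called within a list (at most 5 per comparison by adjusted p, exceptions marked), and likeness was ranked by Pearson's r over the 15 group means of log2 CPM (prior count 2), for the 2 tested NF-kB genes with the highest mean CPM in each line.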

Additional observations from a re-analysis of the deposited data

How the results depend on the processing

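Of 621 counts of called NF-kB genes under an alternative, 614 equalled or stayed within 1.5 times the reported count and 7 moved, and of 2437 values of single genes 2379 kept their call or, where not called, moved by less than 1 standard error, 51 moved by more, 7 gained a call, none changed direction while called and none lost a call. In the 0-week controls between lines, 2 genes were called in place of 1 with no filter on low counts (Relb added) and 2 when only the compared groups were fitted (Nfkb1 added, log2 fold change -1.11, adjusted p = 0.0338). At 2 h between 3-week and naive YUMM2.1 cells, 1 gene was called in place of 0 with library totals as the only scaling, and leaving out 1 replicate gave 0 to 2, while all genes called ran from 183 to 1140 around 777. For YUMM2.1 IFNγ cultures of 1 to 3 weeks, 1 was called in place of 0 with only the compared groups, and leaving out 1 replicate gave 0 to 1. The cause was not tested.

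Replicate numbers are shared between groups, but the deviations of same-numbered samples had mean correlations of -0.00100 in YUMM2.1 and 0.00795 in CT26, so they were not treated as pairs. With the replicate block, 0 of 64 tests passed in YUMM2.1 (smallest adjusted p 0.0619), 0 of 64 in CT26 (0.325) and 1 of 20 between lines, and 28.9% and 46.7% of samples correlated best with their own number. Depth limits the 6 low-count genes to descriptions, and in CT26 it leaves intervals of Nfkbia that span more than 2-fold.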

Other observations

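Some other genes of the pathway also differed between the lines at 0 weeks, where 46.0% of all genes were called. In these small lists the upstream and regulator genes were called less often than all genes, and the output genes more often. Whether these shares differ from that of all genes was not tested. Of 19 tested upstream genes 1 was higher in YUMM2.1, Map3k14 (NIK, the kinase of the noncanonical arm, log2 fold change 1.40), and 3 were lower, among them the Toll-like receptor adaptor Myd88 (-1.96) and the IkB kinase subunit Chuk (-0.93). Of 12 tested outputs 4 were higher, including Clcf1 (2.66) and Ripk2 (1.67), and 4 were lower, including the adhesion molecule gene Vcam1 (-3.58) and the mitochondrial superoxide dismutase gene Sod2 (-1.13). Of 6 tested regulators 1 was lower, Zc3h12a (-0.79). Genes beyond the 5 with the smallest adjusted p were named after their values were seen.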
